A study of Mus musculus with 17 samples.

Results

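Livers of WT_star mice were compared with livers of KO mice, by total RNA sequencing after depletion of ribosomal RNA. WT_star mice (n = 4) are genetically WT females at 8 weeks of age, born to heterozygous parents, with both WT and KO animals among their grandparents. KO mice (n = 3) lack Khdc3 and come from KO ancestors. The WT_star libraries are numbered 20, 21, 33 and 34 and the KO libraries 30, 31 and 32, and all genes with a deposited value of at least 10 in at least 3 of these 7 libraries were taken, which were 15272 of the 27020 genes in the table. Values of 6 KO_star livers (genetically KO females from heterozygous parents with the same mixed grandparents) and of 4 WT livers from WT ancestors are set beside them. The comparison asks which features of the KO liver are present in genetically WT descendants and which are not. All groups are labelled as liver tissue with hepatocytes as cell type, taken at 8 weeks, and no strain, litter or batch is named. WT_star and KO differ in both genotype and ancestry, which cannot be told apart in this comparison. Whether littermates are among the replicates is not stated, and the p-values cover no more than the variation among these libraries, which may be technical.

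Khdc3 encodes a protein of the subcortical maternal complex, which is stored in the oocyte and acts in the early embryo. The liver takes up fatty acids and breaks them down in mitochondria and peroxisomes, partly to ketone bodies, under control of the nuclear receptor PPAR alpha. It also disposes of amino acid nitrogen as urea, mainly in hepatocytes around the portal vein, while hepatocytes around the central vein make glutamine. During inflammation hepatocytes make acute phase proteins such as serum amyloid A.

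The 7 libraries held 17.7 to 23.22 M gene reads, and 3 reads correspond to a value of 2.66 to 3.53. Khdc3 (chromosome 9, 73101836 to 73104438, GRCm38) had between 0 and 4 reads in each of the 17 libraries, so its level checks no genotype label. Every library held female-typical reads, 25243 to 35961 from Xist and 0 or 1 from the Y-linked gene Kdm5d. Albumin took 7.69% ± 0.63 of the reads in WT_star (SD, n = 4) and 6.72% ± 0.35 in KO (SD, n = 3), with 9.15% ± 1.03 in KO_star (SD, n = 6) and 9.69% ± 0.47 in WT (SD, n = 4). All 19 hepatocyte markers were among the genes taken, and markers of other liver cells were measured too, so the RNA is not of hepatocytes alone. Of 11 pancreatic acinar markers in the table, 7 were at 0 in all 7 libraries, among them Cpa1 and Prss2, and the sum of the 11 was 602 to 732 in WT_star and 285 to 328 in KO, nearly all of it from the elastase gene Cela1 (722, 621, 575 and 707.5 in WT_star, 319.5, 278 and 275.5 in KO). In bulk tissue, fewer cells of a type and less RNA per cell cannot be told apart.

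WT_star 33 and, less so, WT_star 34 stood apart from the other WT_star libraries in genes of the acute phase response. Saa1, which encodes serum amyloid A, was at 419, 318, 76340 and 15450 in WT_star 20, 21, 33 and 34, against 337, 295 and 143 in KO and 139.8 to 731 in WT. Lcn2, which encodes an iron-sequestering protein of inflammation, was at 464, 399, 36290 and 1067 in WT_star, against 305, 130.5 and 80.7 in KO. The mean log2 level of the 30 acute phase genes was 11.04, 11.1, 13.5 and 12.2 in the WT_star libraries, against 11.2, 11.1 and 10.8 in KO. None of the 30 passed the test. The 15 macrophage markers were highest in the same WT_star libraries, with a mean log2 level of 8.37, 8.44, 9.65 and 9.09 in WT_star and 8.64, 8.42 and 8.34 in KO, and a summed value of 8180 to 15930 in WT_star and 8592 to 9858 in KO. None of them was at 0 and none passed the test. Among the libraries used for comparison, KO_star 13 stood apart from the other KO_star libraries in several genes described with chromosome 9.

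Of the 15272 genes, 222 differed between WT_star and KO (limma on log2(value + 1) with Benjamini-Hochberg adjustment over all genes fitted, adjusted p under 0.05), which is 1.45%. They were 143 genes higher in WT_star (0.936%) and 79 lower (0.517%). An unadjusted p under 0.05 was found for 2156 (14.1%). The median size of the change among the 222 was 0.82 on the log2 scale, and 87 changed by more than 1. For 221 of them every WT_star library lay on 1 side of every KO library, which was so for 2491 of all genes taken (16.3%). The number depended on single libraries: it was 33, 42 and 104 without KO 31, 32 or 30, with 33 of the 222 among the 33, and 102 to 164 without 1 WT_star library. Without WT_star 33 and 34 together it was 38, of which 31 were among the 222. With each library scaled to the same total, 206 genes passed, 104 higher and 102 lower.

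The genes with the largest change and no overlap between the groups had varied functions. Aph1c, a subunit of the gamma-secretase complex, was at 359, 347, 336 and 311.5 in WT_star and 35.9, 16.9 and 33.5 in KO, and its log2 fold change was 3.58 by limma (SE 0.63, adjusted p = 0.013). Igf2bp3, an RNA-binding protein of fetal tissues, was at 579, 539, 328 and 418 in WT_star and 67.3, 83.5 and 95.5 in KO (log2 fold change 2.47, SE 0.33, adjusted p = 0.0021). Ccr3, a chemokine receptor of eosinophils, was at 168, 149.8, 273 and 159.9 in WT_star and 30.3, 51.5 and 30.5 in KO (log2 fold change 2.3, SE 0.26, adjusted p = 0.00026). In each of these genes all WT_star libraries lay above all KO libraries, and the WT range was 300.2 to 416.5 for Aph1c, 287 to 591 for Igf2bp3 and 115.0 to 139.6 for Ccr3. Meiob, a DNA-binding protein of meiosis, was at 265, 508, 641 and 378 in WT_star and 129, 137 and 105 in KO (log2 fold change 1.78, adjusted p = 0.00073). Synj2, a phosphoinositide phosphatase, was at 574, 506, 313 and 259.9 in WT_star and 109, 84.3 and 128 in KO (1.89, adjusted p = 0.0023). Mtmr7, a phosphatase of the myotubularin family, was at 136, 96.6, 174 and 87.7 in WT_star and 34.7, 35.5 and 35.4 in KO (1.73, adjusted p = 0.0021). All 6 genes were chosen for having no overlap between WT_star and KO, and none of them passed in WT_star against WT (adjusted p from 0.32 to 0.97). Igf2bp3, Ccr3, Meiob, Synj2 and Mtmr7 kept their call without each of the 7 libraries in turn and without WT_star 33 and 34 together. Aph1c lost it without KO 31, without KO 32 (adjusted p up to 0.095) and without WT_star 33 and 34.

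Other higher genes among the 10 with the largest change were more variable within WT_star. Clec2h, a C-type lectin, was at 12.5, 148, 149 and 100 in WT_star and 2.24, 4.44 and 0.98 in KO (log2 fold change 4.51, adjusted p = 0.028), with WT_star 20 far below the other WT_star libraries. Its level was below 3 reads in KO 30 and KO 32, and its fitted fold change depends on the constant added, with 3.45 for a constant of 5. Cfap20dc (2.52, adjusted p = 0.035) and Gria3, a glutamate receptor subunit (1.73, adjusted p = 0.028), were also higher, and these 3 lost their call without several single libraries (adjusted p up to 0.17).

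**Figure D1:**
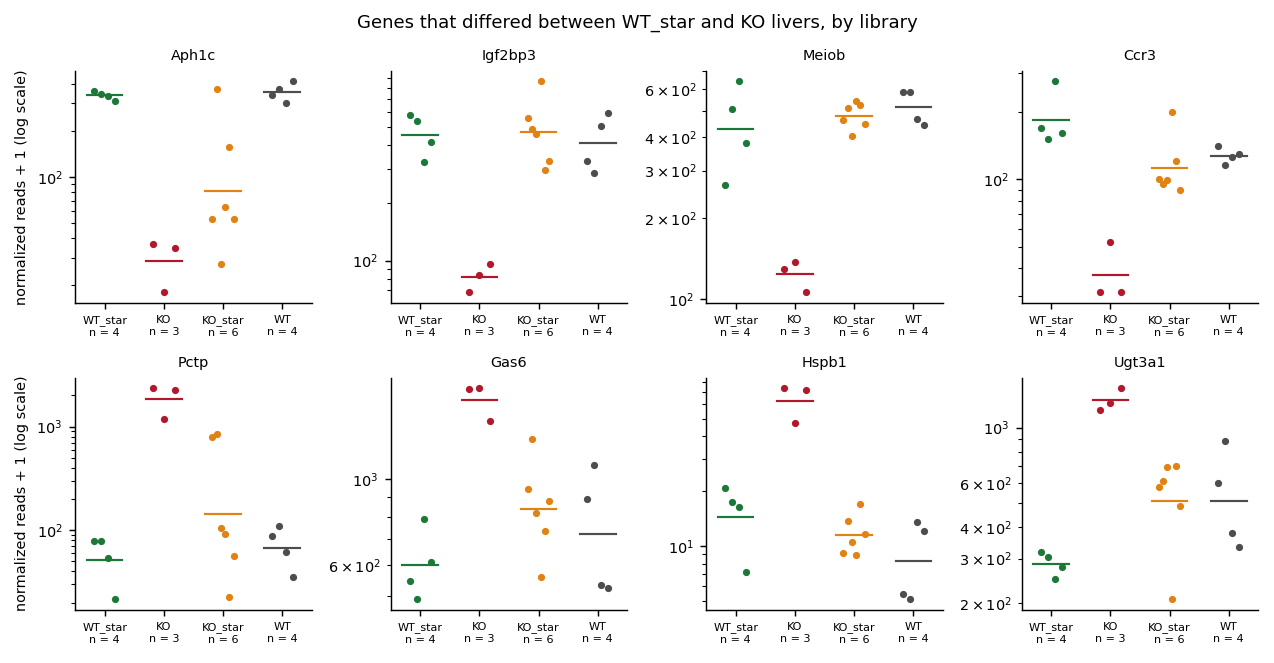
Normalized reads plus 1 (vertical, log scale) of 8 genes in each WT_star, KO, KO_star and WT library; points are libraries and bars are means on the log scale. In all 8 panels the 4 WT_star libraries do not overlap the 3 KO libraries, and for Aph1c and Pctp the KO_star libraries spread between the levels of the other groups.

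Among the genes with lower levels in WT_star, Wdr72, a WD repeat protein needed for tooth enamel, was at 0, 0.966, 2.35 and 2.06 in WT_star and 609, 856 and 554 in KO. It lay at or below 3 reads in every WT_star library, and its fitted log2 fold change of -8.29 (adjusted p = 0.01) depends on the constant added, with -6.73 for a constant of 5. It lost its call without KO 31, without KO 32 (adjusted p up to 0.061) and without WT_star 33 and 34 (adjusted p = 0.066). Pctp, which transfers phosphatidylcholine between membranes, was at 77.9, 77.3, 52.9 and 20.6 in WT_star and 2351, 1194 and 2244 in KO (log2 fold change -5.16, adjusted p = 0.034). Rad51b, of the homologous recombination machinery, was at 183, 256, 76.4 and 49.5 in WT_star and 437, 677 and 620 in KO (-2.29, adjusted p = 0.036). The Pctp range in WT was 34.4 to 108.4, which covers 3 of the 4 WT_star libraries. Pctp lost its call without any single one of the 7 libraries (adjusted p up to 0.13).

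Ugt3a1, a UDP-sugar transferase, was at 317, 303, 248 and 277 in WT_star and 1174, 1249 and 1436 in KO (log2 fold change -2.16, adjusted p = 0.012). Gas6, a ligand of the TAM receptor kinases, was at 546, 491, 790.4 and 611 in WT_star and 1700, 1713 and 1408 in KO (-1.41, adjusted p = 0.02). Ctse, the protease cathepsin E, was at 186, 182, 168 and 136 in WT_star and 368, 373 and 470.4 in KO (-1.26, adjusted p = 0.011). WT was at 331 to 884 for Ugt3a1 and 193 to 351 for Ctse, above every WT_star library. By limma neither Ugt3a1 nor Ctse passed in KO against WT (adjusted p = 0.074 and 0.12). Neither passed in WT_star against WT (adjusted p = 0.28 and 0.2). Ugt3a1, Gas6 and Ctse were chosen for having no overlap between WT_star and KO. Rdh16, a retinol dehydrogenase (-1.14, adjusted p = 0.048), and the peroxisomal gene Ehhadh (-1.20, adjusted p = 0.011) were also lower. Hspb1, a small heat shock protein, was at 19.7, 16.4, 15.3 and 6.19 in WT_star and 72.9, 46.2 and 70.8 in KO (-2.14, adjusted p = 0.016), with 4.11 to 12.6 in WT. It was the only called gene of the 20 heat shock genes (1.45% of all genes taken were called). Their median log2 fold change was -0.20, against -0.01 over all genes taken. Leaving out 1 library moved this median between -0.32 and -0.07, and Hspb1 lost its call without KO 30, KO 31 or KO 32 (adjusted p up to 0.085).

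Of 46 genes of fatty acid oxidation and ketogenesis, 6 were lower in WT_star (over all genes taken 0.517% were), 0 were higher and 42 had a negative fold change, with a median log2 fold change of -0.39, where 51.3% of all genes taken were negative. Ehhadh, the peroxisomal bifunctional enzyme, was at 6254, 5207, 4150 and 4585 in WT_star and 8213, 12350 and 14680 in KO, with 4232 to 6555 in WT (log2 fold change -1.20, SE 0.21, adjusted p = 0.011). Every WT_star library was below every KO library in Ehhadh, and no member of the list passed in WT_star against WT.

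Slc25a20, Acot2 and Fgf21 also passed and were named after their values were seen. Slc25a20, the carnitine-acylcarnitine carrier of mitochondria, was at 2136, 2098, 1316 and 1618 in WT_star and 2658, 2941 and 3043 in KO (log2 fold change -0.71, adjusted p = 0.043). Acot2, a mitochondrial thioesterase, was at 126, 122, 94.1 and 56.7 in WT_star and 219, 191 and 221 in KO (-1.13, adjusted p = 0.048). Fgf21, a fasting hormone of the liver, was at 5.38, 14.5, 1.18 and 16.5 in WT_star and 35.9, 76.4 and 68.9 in KO (-2.90, adjusted p = 0.049). Its value in WT_star 33 lay below 3 reads, so the size of its fold change is uncertain. In KO against WT, 449 of all genes taken passed (2.94%), 213 higher (1.39%) and 236 lower (1.55%), and 4 members of this list were higher with a median of 0.33. In WT_star against WT, 143 passed (0.936%), 85 higher (0.557%) and 58 lower (0.38%), and the list's median was -0.16 with none called. These comparisons share their libraries with WT_star against KO.

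The levels of these genes were lowest in WT_star 33 and 34, the libraries with the high acute phase levels. The mean log2 level of the 46 genes was 11.3, 11.3, 10.6 and 10.7 in WT_star 20, 21, 33 and 34, against 11.5, 11.7 and 11.8 in KO and 11.04 to 11.5 in WT. Cyp4a10, a fatty acid hydroxylase, was at 4857, 5245, 440 and 511.5 in these WT_star libraries and at 6108, 8917 and 11170 in KO, and Acot1, a cytosolic thioesterase, was at 150.5, 143, 18.8 and 22.7 in WT_star and at 340, 345 and 349 in KO. Neither gene passed (adjusted p = 0.27 and 0.17). Without WT_star 33 and 34, 0 of the 46 members passed, while 36 were still negative and the median was -0.27. The number of lower members was also 0 without KO 31 or KO 32, 1 or 2 without WT_star 33, WT_star 34 or KO 30, and 4 or 5 without WT_star 20 or 21. The part of the acute phase and macrophage levels in this result was not tested.

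Of 31 genes of the urea cycle and of amino acid breakdown, 8 were higher in WT_star and 0 lower, where 0.936% of all genes taken were higher. A positive fold change was found for 27 of the 31, against 48.7% of all genes taken, and the median log2 fold change was 0.33. Cps1, the first and rate-limiting enzyme of the urea cycle, was at 164700, 147600, 135400 and 161400 in WT_star and 101800, 82130 and 77860 in KO, with 112000 to 133700 in WT. Its log2 fold change was 0.81 (SE 0.12, adjusted p = 0.0022 by limma), and every WT_star library was above every KO and WT library. Slc25a15, the mitochondrial ornithine carrier, was at 12100, 11050, 10270 and 12110 in WT_star and 9034, 7598 and 7841 in KO (0.48, SE 0.09, adjusted p = 0.012). Gls2, the liver glutaminase, was at 8157, 6372, 9826 and 8772 in WT_star and 5706, 4185 and 4073 in KO (0.83, SE 0.15, adjusted p = 0.012). Ass1, which joins citrulline and aspartate, was at 59820, 43290, 42890 and 63080 in WT_star and 39280, 31120 and 27320 in KO (0.68, adjusted p = 0.047).

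The other members that passed were the aminotransferase genes Agxt (0.70, adjusted p = 0.024) and Gpt (0.58, adjusted p = 0.029), the histidine breakdown gene Ftcd (0.44, adjusted p = 0.029) and the tyrosine breakdown gene Hgd (0.45, adjusted p = 0.015), given as log2 fold changes and named after their values were seen. Arg1, the enzyme that releases urea, had 24170, 23160, 24280 and 25540 in WT_star and 21410, 17740 and 18850 in KO and did not pass (adjusted p = 0.082). The mean log2 level of this list in WT_star 33 and 34 did not fall below that of both other WT_star libraries: it was 13.2, 13.1, 13.1 and 13.2 in WT_star and 12.9, 12.7 and 12.7 in KO. Without WT_star 33 and 34 the median was 0.30 and 30 of 31 members were positive, but Cps1 alone passed. The count of called members was 1 without KO 31 or KO 32 and 4 to 8 without each of the others, and in a fit of only these 7 libraries it was 1. In KO against WT 4 members were lower (1.55% of all genes taken were) and 0 higher (median -0.25). In WT_star against WT 1 was higher (0.557% of all genes taken were, median 0.12).

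**Figure D2:**
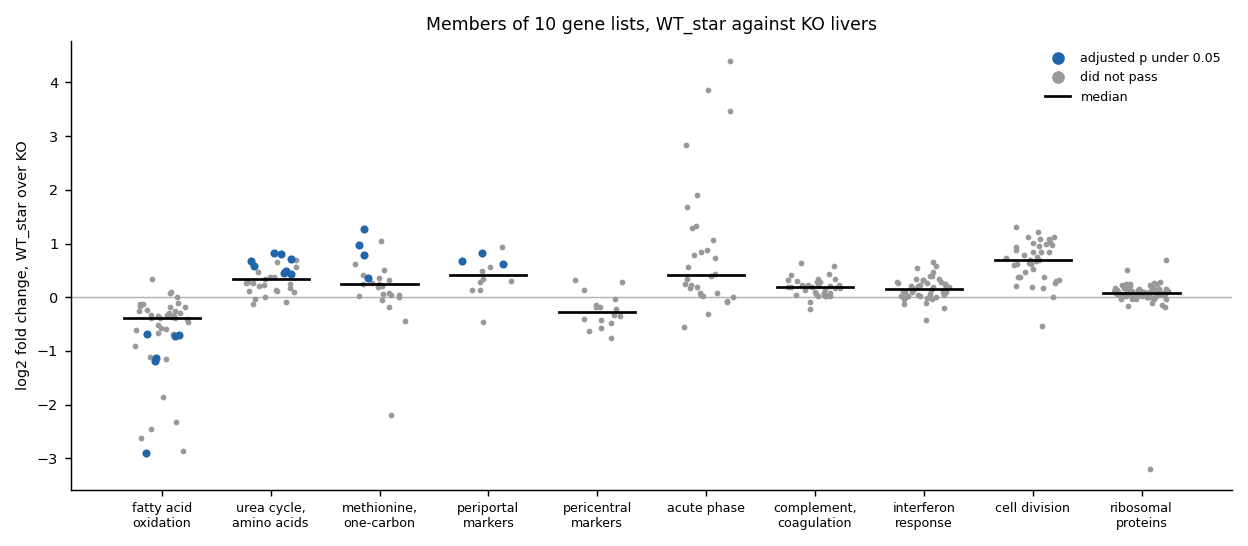
Log2 fold change of WT_star over KO (vertical) for each member of 10 gene lists (horizontal); blue points passed the adjusted p of 0.05, grey points did not and bars are medians. All 6 called fatty acid oxidation genes lie below 0 and all 8 called urea cycle and amino acid genes above it, while no cell division, interferon or acute phase gene is blue.

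Of 25 genes of methionine, taurine and one-carbon metabolism, 4 were higher in WT_star and 0 lower, with a median log2 fold change of 0.25. Over all genes taken, 0.936% were higher and 0.517% lower. The count was 1 in a fit of only these 7 libraries or with no filter, and 2 with equal totals or quantile normalization. Bhmt, which remethylates homocysteine with betaine, was at 36240, 28120, 21410 and 36320 in WT_star and 14210, 14840 and 16980 in KO (0.96, SE 0.22, adjusted p = 0.037). Aldh1l1, a folate dehydrogenase, was at 28300, 21090, 27660 and 32830 in WT_star and 19300, 14470 and 13830 in KO (0.79, SE 0.15, adjusted p = 0.015). Cth, which makes cysteine from cystathionine, was at 7727, 2967, 3817 and 3228 in WT_star and 2024, 1516 and 1571 in KO (1.28, SE 0.27, adjusted p = 0.034). Its WT libraries were at 1933 to 2846, and KO against WT did not pass (limma, adjusted p = 0.51). WT_star and KO did not overlap in Bhmt, Aldh1l1 or Cth, and Cth was highest in WT_star 20. The neighbour and relative of Bhmt, Bhmt2, was also higher (0.36, adjusted p = 0.04), and reads of such similar copies may be divided between them. None of the 25 passed without KO 31, without KO 32 or without both WT_star 33 and 34.

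Abcb11 and Bhmt passed against both pure groups. These comparisons share the 4 WT_star libraries, so the 2 calls of a gene are not separate results. Abcb11, the bile salt export pump, was at 15320, 18350, 16830 and 19470 in WT_star, 13560, 9473 and 11830 in KO and 10860 to 12460 in WT. Its log2 fold change was 0.60 over KO (SE 0.12, adjusted p = 0.025) and 0.59 over WT (SE 0.12, adjusted p = 0.022), while KO and WT means were 11620 and 11550. Bhmt averaged 30520 ± 7193 in WT_star (SD, n = 4), 15340 ± 1452 in KO (SD, n = 3) and 16300 ± 4757 in WT (SD, n = 4), with a log2 fold change of 0.92 over WT (adjusted p = 0.045). Against KO, Abcb11 lost its call in the fit of only these 7 libraries and without KO 31, KO 32, WT_star 21 or WT_star 34, and Bhmt lost its call in 9 of 18 other settings, with adjusted p up to 0.16 for both. Another bile acid gene, the hydroxylase gene Cyp2c70, was at 17200, 16190, 15070 and 20440 in WT_star and 9692, 10490 and 9515 in KO (0.79, SE 0.14, adjusted p = 0.011), with 16200 to 20200 in WT. These were the 2 called genes, Abcb11 and Cyp2c70, of 25 in the bile acid and sterol list, whose median was 0.03. Of all genes taken, 1.45% were called.

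Among 37 conjugation enzymes, 3 were lower and 1 higher in WT_star, with a median log2 fold change of -0.03. Over all genes taken, 0.517% were lower and 0.936% higher. Ugt1a1, the bilirubin glucuronosyltransferase, was at 3775, 3569, 3062 and 3079 in WT_star and 5359, 4370 and 5237 in KO (-0.57, SE 0.12, adjusted p = 0.023). Its WT libraries were at 3821 to 5414, and KO against WT did not pass (limma, adjusted p = 0.47). Ugt1a5 shares exons with Ugt1a1 at the same locus and was also lower (-0.70, adjusted p = 0.048), so these calls may rest on the same reads. Tpmt, the thiopurine methyltransferase, was intermediate: it was at 726, 630.1, 1124 and 954 in WT_star, 375.5, 430 and 424 in KO and 1501 to 1737 in WT. Its log2 fold change was 1.03 over KO (SE 0.20, adjusted p = 0.019) and -0.96 over WT (SE 0.19, adjusted p = 0.023), with no overlap in either comparison.

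The basement membrane collagen genes Col4a3 and Col4a4, which are neighbours on chromosome 1, were higher in WT_star than in KO and had lower means than in WT. Col4a3 was at 50.2, 24.2, 203.5 and 80.4 in WT_star, 5.61, 4.44 and 3.94 in KO and 209.8 to 424 in WT (log2 fold change over KO 3.60, SE 0.75, adjusted p = 0.031). Col4a4 was at 67.2, 43.5, 176 and 78.4 in WT_star, 20.2, 23.1 and 21.6 in KO and 168 to 279.7 in WT (1.84, SE 0.43, adjusted p = 0.046). Both were highest in WT_star 33, neither passed in WT_star against WT (adjusted p = 0.15 and 0.091), and by edgeR neither passed in WT_star against KO. The list of 19 basement membrane and prominin genes had 2 called members, where 1.45% of all genes taken were called, and a median of 0.42.

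Markers of the zones of the liver lobule were measured beside the nitrogen genes. Of 12 periportal markers, 3 were higher, 0 lower and 11 positive in WT_star, with a median log2 fold change of 0.41. Over all genes taken, 0.936% were higher and 48.7% positive. The called markers Gls2 and Ass1 are also in the urea cycle and amino acid list. Because the lists share genes, their medians, signs and mean levels are not separate results. Aldh1b1, a mitochondrial aldehyde dehydrogenase, was at 3901, 3441, 5111 and 4408 in WT_star and 2756, 2483 and 2957 in KO (0.61, SE 0.13, adjusted p = 0.028). The mean log2 level of the periportal markers was 13.2, 13.2, 13.3 and 13.3 in WT_star and 12.8, 12.9 and 12.9 in KO, with no overlap. Of 16 pericentral markers none passed by limma, with 13 negative and a median of -0.28. This rested on KO 30: without it 8 were negative and 8 positive, with a median of -0.02, and the mean log2 level was 10.2 or lower in every WT_star library, against 10.7, 10.03 and 10.2 in KO 30, 31 and 32. Glul, the glutamine synthetase of the innermost pericentral cells, was at 9727, 13520, 8917 and 8517 in WT_star and 16570, 15900 and 18430 in KO (-0.76, SE 0.19, adjusted p = 0.058). By limma no periportal marker passed without KO 31, without KO 32 or without both WT_star 33 and 34.

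**Figure D3:**
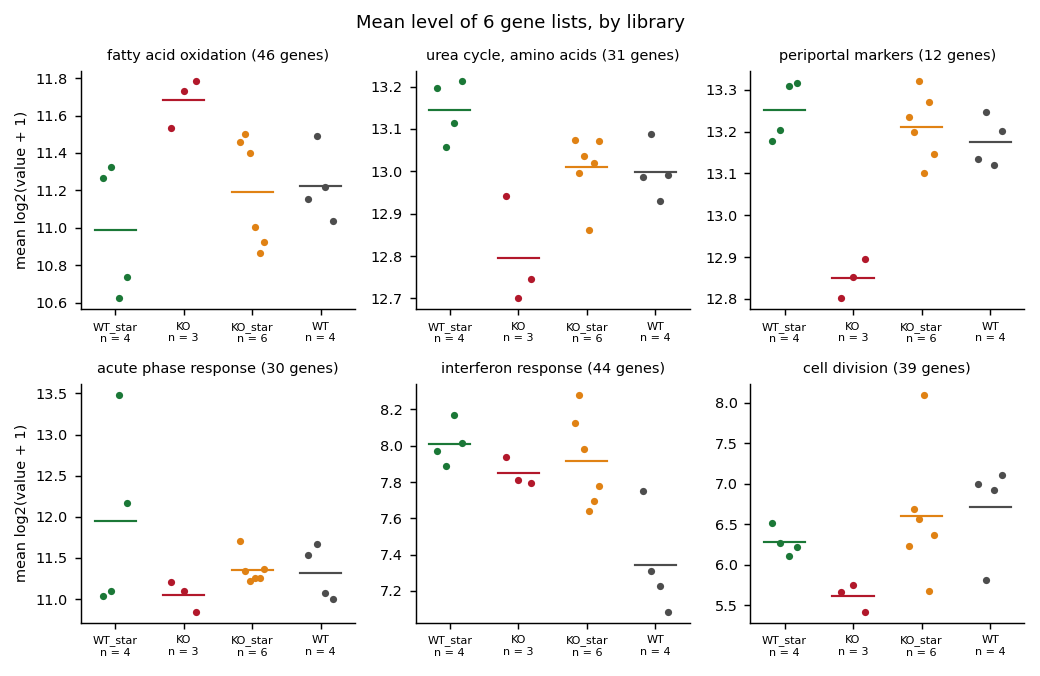
Mean log2(value + 1) of 6 gene lists (vertical) in each WT_star, KO, KO_star and WT library; points are libraries and bars are group means. Fatty acid oxidation is lowest in 2 WT_star libraries, the ones with the highest acute phase level, while the urea cycle and periportal levels of WT_star lie above all 3 KO libraries.

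Among the genes taken within 10 Mb of Khdc3 on chromosome 9, 8 of 137 passed (5.84%, against 1.45% of all genes taken), 5 higher and 3 lower. Wdr72 lies 1.09 Mb from Khdc3 (74110356 to 74283308). Aqp9, the glycerol channel of hepatocytes, lies 1.96 Mb away on the other side and was at 5167, 6326, 5398 and 4853 in WT_star and 8454, 7597 and 8579 in KO (log2 fold change -0.60, SE 0.10, adjusted p = 0.0084). Fam81a was at 45.7, 55.1, 47.0 and 61.9 in WT_star and 34.7, 13.3 and 17.7 in KO (1.32, SE 0.28, adjusted p = 0.028), with 84.6 to 125 in WT. Tpm1, an actin-binding tropomyosin, was at 1035, 1032, 933 and 948 in WT_star and 492, 582 and 559.9 in KO (0.86, SE 0.14, adjusted p = 0.0046). All of these were without overlap between WT_star and KO.

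Aph1b, BC050972, Aph1c and Tpm1 formed a run of 4 higher genes within 0.27 Mb of chromosome 9 (66775202 to 67049406), where 8 genes were taken. Aph1b was at 251, 252, 339 and 268 in WT_star and 113, 87.9 and 121.0 in KO (log2 fold change 1.36, SE 0.21, adjusted p = 0.0046). BC050972 averaged 22.3 in WT_star and 4.61 in KO (1.98, adjusted p = 0.02). Aph1b and Aph1c encode alternative subunits of the same complex and are similar copies, between which reads may be divided. Rbpms2, an RNA-binding protein gene 7.46 Mb from Khdc3, was lower (-0.66, adjusted p = 0.034). BC050972 and Rbpms2 were named after their values were seen. Of the 8 called genes within 10 Mb of Khdc3, Wdr72 and Aph1b also passed in KO_star against WT (limma, adjusted p = 0.047 and 0.049). The others did not, with adjusted p from 0.094 for Aph1c to 0.89 for BC050972.

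**Figure D4:**
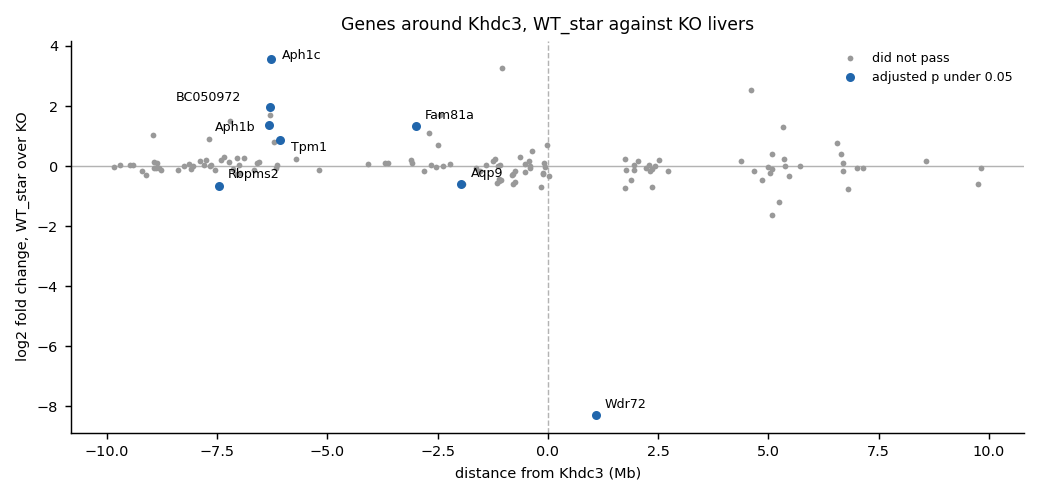
Log2 fold change of WT_star over KO (vertical) against the distance of each gene's midpoint from that of Khdc3 in Mb (horizontal), for the 137 genes within 10 Mb; blue points passed the adjusted p of 0.05. Wdr72 is the lowest point at -8.29 and Aph1c the highest at 3.58, among neighbours that mostly lie near 0.

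Other called genes were also neighbours. On chromosome 8, 7 of the 92 genes taken between 68793929 and 72224418 passed, 6 higher and 1 lower. On chromosome 17, 6 of 45 genes between 24163866 and 25234443 passed: Meiob, Abca3 and Clcn7 are in this run with Atp6v0c, Tedc2 and Unkl, and 3 were higher and 3 lower. Atp6v0c, a subunit of the vacuolar proton pump, was at 455, 221, 218 and 208 in WT_star and 648, 596 and 680.0 in KO (log2 fold change -1.30, adjusted p = 0.017), and Tedc2, of a centriolar tubulin complex, was at 769, 501, 363 and 731 in WT_star and 1468, 1371 and 1336 in KO (-1.30, adjusted p = 0.024). WT_star 20 was the highest WT_star library in both genes. On chromosome 9, 5 of 63 genes between 107563255 and 109119917 passed, Slc25a20 among them. Chromosome 9 held 21 called genes of 842 taken (2.49%), the highest share of any chromosome, and chromosome 19 the lowest, with 3 of 517 (0.58%). The runs were defined after the positions of the called genes were seen, and neighbouring genes may not be independent changes. Each run, that of Aph1c included, begins and ends at a called gene, which raises the share called inside it. Over all genes taken this share was 1.45%.

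KO_star against WT shares no library with WT_star against KO and also compares mice that differ in the Khdc3 genotype. It compares mice that differ in ancestry as well, so genotype and ancestry cannot be told apart in it either. In it, 110 of the genes taken passed, which is 0.72%, 73 higher (0.478%) and 37 lower (0.242%) in KO_star. Of these, 10 were also called in WT_star against KO, which is 4.5% of the 222 and 9.09% of the 110. Of the 10, 8 changed in the opposite direction, so that in both comparisons the genetically KO livers were on the same side. These were Wdr72, Aph1b, Col4a4, Tpmt, the collagen gene Col26a1 and the pseudogenes Gm6548, Gm5869 and Gm48338, all named after their values were seen. Tpmt averaged 779.9 in KO_star and 858.5 in WT_star, against 409.8 in KO and 1632 in WT. Col4a4 averaged 75.7 in KO_star and 91.4 in WT_star, against 21.6 in KO and 225.8 in WT. In both genes the KO_star and WT_star libraries overlapped, with means between those of KO and WT. Col26a1 was at 48.4, 61.8, 34.1 and 74.3 in WT_star and 11.2, 3.55 and 8.86 in KO (log2 fold change 2.71, adjusted p = 0.0084), and at 4.73 to 21.3 in KO_star and 28.8 to 79.2 in WT (-2.19, adjusted p = 0.01). Its KO libraries lay below all WT_star libraries and its KO_star libraries below all WT libraries.

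KO_star 13 went against its group in Wdr72, in the 3 pseudogenes and in Aph1c. Wdr72 was at 2.11 in KO_star 13 and at 269 to 487 in the other KO_star libraries, against 1.64 to 6.23 in WT. Aph1c was at 374 in KO_star 13 and at 26.5 to 156 in the others, against 300.2 to 416.5 in WT. Without KO_star 13 the log2 fold change of KO_star over WT was 6.60 for Wdr72 (adjusted p = 1.7e-08; with it 5.44, adjusted p = 0.047) and -2.57 for Aph1c (adjusted p = 0.0022; with it -2.13, adjusted p = 0.094). Without this library 112 genes passed in KO_star against WT, 230 in WT_star against KO and 18 in both, of which 15 were in opposite directions, Aph1c among them and Col4a4 not (KO_star over WT, adjusted p = 0.075). Khdc3 has too few reads to check its genotype label.

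Gm6548 on chromosome 17, Gm5869 on chromosome 5 and Gm48338 on chromosome 13 share their closest protein-coding gene, Eef1a1, the translation elongation factor. Eef1a1 lies on chromosome 9 (78478449 to 78489151), 5.38 Mb from Khdc3, and matched the copies at 96.7%, 96.5% and 97.0% of the aligned bases. The sequences show how few bases separate each copy from Eef1a1. They are 60-base stretches of the Eef1a1 reading frame, 5′ to 3′, from the GENCODE M21 transcripts on GRCm38, chosen for holding the most differing bases, 6 in each pair, and capitals mark the bases that differ.
Gm6548: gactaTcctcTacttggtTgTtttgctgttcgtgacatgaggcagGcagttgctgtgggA
Eef1a1: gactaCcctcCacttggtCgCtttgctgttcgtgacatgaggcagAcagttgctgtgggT
Gm5869: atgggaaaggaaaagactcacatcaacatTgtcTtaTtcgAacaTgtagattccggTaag
Eef1a1: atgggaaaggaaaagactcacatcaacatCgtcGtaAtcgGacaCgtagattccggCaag

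Gm5869 was at 305.5, 330.5, 292 and 303 in WT_star and 809, 764 and 815 in KO (log2 fold change -1.37, SE 0.24, adjusted p = 0.011). Gm6548 was at 233, 281, 319 and 366 in WT_star and 660.2, 598 and 596 in KO (-1.06, SE 0.18, adjusted p = 0.0084), and Gm48338 at 23.3, 26.1, 21.2 and 27.9 in WT_star and 52.7, 54.2 and 87.6 in KO (-1.33, SE 0.30, adjusted p = 0.037). All 3 were without overlap. In KO_star 13 they were at 311.5 (Gm5869), 311.5 (Gm6548) and 32.7 (Gm48338), against 714 to 859, 472 to 555 and 64.2 to 81.5 in the other KO_star libraries. Eef1a1 itself averaged 39900 ± 1194 in WT_star (SD, n = 4) and 39640 ± 1371 in KO (SD, n = 3), a log2 fold change of 0.01 (adjusted p = 0.97). Reads of such near-identical copies may be assigned to either by the authors' mapping, so the values of the pseudogenes are uncertain, and which locus their reads came from was not tested.

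The 2 genes that changed in the same direction in both comparisons, Itga6 and Metap1d, are neighbours on chromosome 2. The integrin gene Itga6 was at 424, 471, 272 and 662 in WT_star and 221, 138 and 102 in KO (log2 fold change 1.57, SE 0.32, adjusted p = 0.028), and at 213 to 504 in KO_star and 93.6 to 176 in WT. The mitochondrial methionine aminopeptidase gene Metap1d was at 578, 728, 614 and 797 in WT_star and 489.9, 341 and 356 in KO (0.79, SE 0.14, adjusted p = 0.011), and at 512 to 684 in KO_star and 299 to 373 in WT. Both groups of mixed ancestry thus lay above the pure group they were set against. Without KO_star 13, Itga6 did not pass in KO_star against WT (adjusted p = 0.063).

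Features of the KO liver that WT_star livers shared are given by genes that passed in the same direction in KO against WT and in WT_star against WT. These comparisons use the same WT libraries and are given as values only. Cyp17a1, the steroid hydroxylase of androgen synthesis, was at 3244, 1278, 2565 and 1243 in WT_star and 2018, 582 and 973 in KO, with 464 to 1494 in KO_star and 53.6 to 83.8 in WT. Them7, a thioesterase family gene, was at 161, 133, 92.9 and 94.9 in WT_star and 288, 212 and 244 in KO, with 3.56 to 13.2 in WT. As3mt, the arsenic methyltransferase, was at 882, 658, 919 and 743 in WT_star and 877, 621.5 and 753 in KO, with 271 to 324 in WT. In these genes every WT_star and every KO library was above every WT library, every WT_star library of Them7 was below every KO library, and WT_star against KO did not pass (adjusted p = 0.46, 0.21 and 0.81).

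The histone demethylase gene Kdm2b was at 614.5, 677, 616 and 712 in WT_star and 749, 779.5 and 787 in KO, with 235 to 317 in WT. Cdcp1, a membrane protein gene, was at 116.5, 36.7, 247 and 342 in WT_star and 167, 172 and 156.5 in KO, with 9.86 to 31.1 in WT. The non-coding AI506816 was at 512, 458, 119 and 247.5 in WT_star and 296, 145 and 244 in KO, with 20.4 to 45.7 in WT, and Spsb4 at 201, 154, 108 and 153 in WT_star and 141, 141 and 171 in KO, with 59.1 to 66.7 in WT. These 4 were high in both groups, with every WT_star library of Kdm2b below every KO library, and Cdcp1 varied most within WT_star. Arhgef10, a guanine nucleotide exchange factor, was at 106, 125, 95.3 and 86.6 in WT_star and 108, 91.5 and 102 in KO, against 352 to 471 in WT, and the fucosyltransferase gene Fut10 was at 42.1, 51.2, 28.2 and 48.5 in WT_star and 16.8, 39.1 and 38.4 in KO, against 104 to 120 in WT. The cytochrome P450 gene Cyp2c39 was at 128, 7421, 292 and 162 in WT_star and 263, 179 and 230.3 in KO, with 112 to 201 in KO_star and 13280 to 23300 in WT. It was low in all KO and KO_star libraries and in 3 of 4 WT_star libraries, while WT_star 21 lay between them and WT. Of these 10 genes none passed in WT_star against KO (limma, adjusted p from 0.21 to 1), which does not show that their levels are equal. For Cyp2c39 the log2 fold change was 1.06 with an SE of 1.01.

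**Figure D5:**
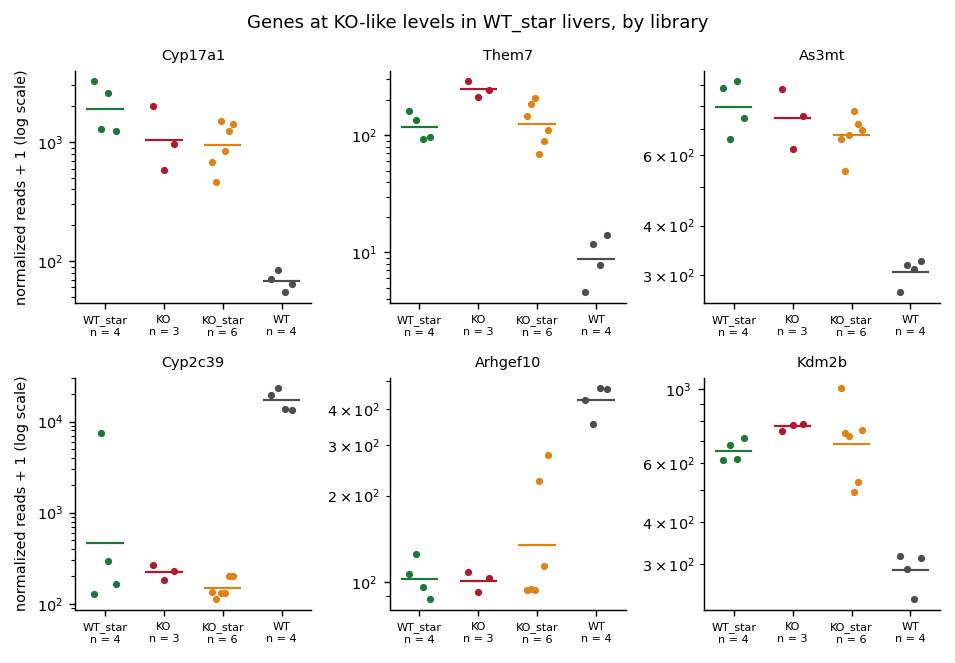
Normalized reads plus 1 (vertical, log scale) of 6 genes in each WT_star, KO, KO_star and WT library; points are libraries and bars are means on the log scale. The genes were chosen for passing against WT in the same direction in KO and WT_star. WT_star and KO libraries therefore lie on the same side of the 4 WT libraries. WT_star lies below KO without overlap for Them7 and Kdm2b, and WT_star 21 lies apart for Cyp2c39 at 7421.

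Interferon response genes had no called member in WT_star against KO. Of 44 members, 37 were positive and the median log2 fold change was 0.15. The mean log2 level was 7.97, 7.89, 8.17 and 8.02 in WT_star and 7.94, 7.81 and 7.80 in KO. It was 7.75, 7.31, 7.22 and 7.08 in WT 25, 26, 27 and 28, so all WT_star and KO libraries lay above the WT libraries. The KO_star libraries were at 7.64 to 8.28, and KO_star 16 and 17 (7.64 and 7.70) lay below WT 25. In KO against WT 6 members were higher and in WT_star against WT 6 were higher, with medians of 0.46 and 0.63. Over all genes taken, 1.39% and 0.557% were higher in these comparisons. Ifi44, an interferon-induced gene, was at 77.0, 60.9, 82.3 and 61.9 in WT_star and 72.9, 68.4 and 51.2 in KO, with 14.2 to 33.1 in WT. Irf9, of the interferon-activated transcription factor complex, was at 755, 722, 755 and 667 in WT_star and 753, 592 and 662 in KO, with 373 to 522 in WT. Both had overlapping WT_star and KO libraries, all above WT, and were named after their values were seen. Antigen presentation genes (25 members, median -0.00) and B cell markers (12 members, median -0.12, summed value over the 17 listed 244.5 to 487 in WT_star and 285 to 378 in KO) had no called member either.

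Cell division genes had no called member, although 37 of 39 were positive with a median log2 fold change of 0.70. Mki67, the proliferation antigen, was at 351, 278, 340 and 298 in WT_star and 150.2, 186 and 134 in KO, with 164 to 682 in WT (1.02, SE 0.51, adjusted p = 0.4). Top2a, a topoisomerase of dividing cells, was at 221, 155, 196 and 177 in WT_star and 89.7, 127.0 and 77.7 in KO (0.95, SE 0.52, adjusted p = 0.46). The mean log2 level of the list was 6.52, 6.28, 6.11 and 6.23 in WT_star and 5.67, 5.75 and 5.42 in KO, without overlap, and 5.68 to 8.10 in KO_star. Mki67 and Top2a were named after their values were seen. By limma none of the 39 passed, and the reason was not tested. The fit takes the spread of each gene from all 17 libraries, KO_star and WT included.

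Several other lists held no called gene in WT_star against KO. These were 45 cytochrome P450 genes (median 0.04), 25 genes each of cholesterol synthesis (-0.08) and of fatty acid and triglyceride synthesis (-0.01), 22 lipid droplet genes (-0.14), 26 of glucose metabolism (0.04), 24 of ER stress (-0.05), 23 of glutathione defence (-0.05), 32 sex-biased genes (-0.02), 21 clock genes (-0.27), 21 immediate early genes (-0.05), 39 chromatin enzymes (0.06), 74 ribosomal protein genes (0.09) and 48 genes of oxidative phosphorylation (0.09). All 35 complement and coagulation genes failed the test, while 33 were positive with a median of 0.19. The imprinted list had 1 called member of 33, the non-coding Peg13, at 130, 167, 163.5 and 155 in WT_star and 233, 263 and 228 in KO (log2 fold change -0.65, SE 0.16, adjusted p = 0.049). Among 30 plasma protein genes, Apof, an apolipoprotein gene, passed, at 16130, 14720, 16660 and 16880 in WT_star and 12470, 11560 and 13040 in KO (0.38, SE 0.09, adjusted p = 0.04). Of all genes taken, 1.45% passed.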

How the data were processed

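Total RNA of mouse livers was sequenced with a stranded kit after removal of ribosomal RNA, per the labels' protocols. The authors deposited 1 table of normalized values per gene and library. Per the submitters' processing notes, cutadapt, HISAT2, DESeq2 and the build GRCm38 were used; how reads were counted, with which annotation and strand setting, is not stated in what was used here. As a unit these deposited values are a signal, reads over a size factor for each library: dividing by the value of 1 read gave whole numbers for 100.0% of entries (tolerance 0.001 reads). The floor of 3 reads covers counting error only, as no molecular identifiers are described. Of the gene identifiers, 26963 matched GENCODE release 21 for mouse, which gave positions on GRCm38. Without a stated strand setting, antisense partners cannot be separated.

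Log2(value + 1) of 16157 genes (10 or more in 3 or more of the 17 libraries) was fitted with limma 3.58.1 in R 4.3.3 (1 mean per group, trended and robust variances, Benjamini-Hochberg adjustment over all fitted genes, threshold 0.05), and the rows of the 15272 genes taken are reported. Fold changes on this scale understate the change of low genes. The steps were tested on simulated data. The whole-read counts recovered from the deposited values were tested with edgeR 4.0.16 and DESeq2 1.42.0 as alternatives.

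Members, gene lists and tests were chosen with earlier results of these data known. By rule, the text names the 10 genes up and 10 down by largest change (no overlap, 100 or more on average in the higher group), up to 3 called members per list by adjusted p, up to 5 called genes nearest Khdc3 within 10 Mb, and up to 10 genes called alike in both pure-KO and WT_star livers over WT; predicted genes were left out. The 10 genes called in both comparisons without shared libraries, and others marked in the text, were named after their values were seen. The alternatives were DESeq2, edgeR, other scalings, filters and pseudocounts, library weights, a minimum fold change, only the 7 libraries, and leaving out each library; leaving out WT_star 33 and 34 together was chosen after seeing the data. Replicates of WT_star and KO differed by more than sampling noise (chi-square per degree of freedom from 10.5 to 101.7). No number is shared between groups, so no libraries were paired. Pseudogene copies were matched to protein-coding transcripts with blastn. Some genes that the rule names are not reported here.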

Additional observations from a re-analysis of the deposited data

Results flagged for a closer look

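Within-group outliers were sought for the named genes in 177 groups of 4 to 6 libraries, and 11 were found; chance flags about 1 in 20 groups. KO_star 13 lay far from the other KO_star libraries in Wdr72 (2.11, others 268.6 to 487.4), Gm5869 (311.5, others 714.2 to 859.4), Gm6548 (311.5, others 471.8 to 554.6) and Gm48338 (32.7, others 64.2 to 81.5). In each of these genes its value was nearer to the WT libraries than to the other KO_star libraries. Its genotype label could not be checked, since Khdc3 had 0 reads there and between 0 and 4 in the other libraries.

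WT_star 20 was low in Clec2h (12.5, others 100 to 149.4) and high in Atp6v0c (455.1, others 208.3 to 221.3). KO_star 16 was low in Ugt3a1 (206.0, others 484.8 to 702.0) and KO_star 29 high in Aldh1l1 (31670, others 21480 to 24450). WT 26 was high in Aqp9 (7153, others 5878 to 6007) and in Gm48338 (45.2, others 23.3 to 24.0), and WT 25 was low in Gm6548 (208.1, others 266.1 to 276.6).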

How the results depend on the processing

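The number of genes that passed in WT_star against KO (222, with 143 higher and 79 lower) was 516 by DESeq2 (298 and 218), 930 with library weights (490 and 440), 87 with a minimum log2 fold change of 1 (58 and 29) and 38 without WT_star 33 and 34 (27 and 11), the last chosen after seeing the data. It was 170 to 242 with other pseudocounts, filters, normalizations, edgeR, the genes taken alone or only these 7 libraries; of the 207 genes of that last fit, 115 were among the 222. Leaving out 1 library each gave 33 to 164 genes, 26 to 107 higher and 6 to 58 lower. Genes near Khdc3 (8) were 13 by DESeq2, 19 with library weights, 5 with the minimum fold change and 1 without WT_star 33 and 34, and 2 to 8 with a library left out. The genes in opposite directions (8) were 20 by DESeq2, 21 with library weights, 5 with quantile normalization, 3 without WT_star 33 and 34, and 1 to 15 with a library left out. KO_star against WT (110) gave 330 by DESeq2, 191 with library weights and 47 with the minimum fold change, and 50 to 130 with a library left out. The median log2 fold change of all genes taken lay between -0.03 and 0.00 in every setting. Equal library totals gave 50.5% higher calls, against 64.4% for the deposited scaling. Of 49 named genes that passed, none changed sign, 9 passed in all 18 other settings with a test, of which Aph1b alone lost its call without WT_star 33 and 34 (Aph1b, Ccr3, Gm6548, Cps1, Igf2bp3, Tpm1, Mtmr7, Meiob and Synj2), 17 lost their call only with a library left out and 23 in at least 1 other setting; the cause was not tested. No paired analysis was possible because the groups share no replicate number. Depth limits Wdr72, which had at most 3 reads in each WT_star library. It also limits Clec2h in KO 30 and KO 32 and Fgf21 in WT_star 33, which lay below 3 reads there.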
